A study of Caenorhabditis elegans with 12 samples.

Results

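Whole Caenorhabditis elegans nematodes carrying both lonp-1(cmh24) and mrps-38(P210L), called the double mutant here, were compared with worms carrying lonp-1(cmh24) alone. All worms were fed HT115 E. coli and collected at L4, the last larval stage before the adult molt, and total RNA was sequenced as stranded paired-end libraries. The comparison used 6 of the 12 libraries of the study, which are 3 biological replicates of each genotype chosen by the genotype in the sample titles. The other 6 libraries, 3 of wildtype and 3 of mrps-38(P210L) alone, served to set each change beside the change that mrps-38(P210L) gave without the lonp-1 mutation. Both compared groups carry the lonp-1 mutation, so by their labels they differ by the mrps-38 allele. Whether they also differed in the exact stage within L4 was not tested. The nature of the cmh24 allele, the number of independent lines behind each genotype and the pooling of worms are not given in the labels. The deposited table lists 19568 genes, and 15790 of them passed the filter of a mean normalized count of at least 10 over the 6 libraries.

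LONP-1 is the Lon protease of the mitochondrial matrix, a AAA+ enzyme that degrades damaged and unassembled matrix proteins and is tied to the upkeep of mitochondrial DNA. The name mrps-38 denotes a small-subunit protein of mitochondrial ribosomes, which translate the few mRNAs of the mitochondrial genome, and P210L is a proline-to-leucine substitution. Imbalance between mitochondrial and nuclear products of the respiratory chain is known in worms to induce the mitochondrial unfolded protein response, in which the factor ATFS-1 raises chaperones such as HSP-6 and HSP-60. A worm at L4 is also a rapidly changing animal. It makes sperm before it switches to oocytes, starts yolk synthesis at the end of the stage, completes the vulva, and replaces its larval cuticle through a molt in which cuticle genes are transcribed in ordered waves.

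The 6 libraries each held between 22738821 and 22890539 reads in genes, so depth did not separate the groups. Genes with at least 1 read numbered 19131 to 19209 in the lonp-1(cmh24) libraries and 18890 to 18917 in the double mutant libraries. The libraries of lonp-1(cmh24) and the double mutant fell on opposite sides of the first principal component, which took 88% of the variance. Replicate 1 of lonp-1(cmh24) stood apart from its group before any comparison. Its chi-square per gene against replicates 2 and 3 was 26.7 and 17.1, against 2.98 between replicates 2 and 3 and 1.67 to 2.03 among the double mutant libraries. Values without that library are therefore given beside genes and gene groups whose call changed, or whose count moved by over 1.5 times, when it was left out, and for the genes with the largest decreases.

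Differential expression was extensive. Of 15790 genes tested with limma on log2(normalized count + 1), 8917 (56.5%) passed a Benjamini-Hochberg adjusted p of 0.05 over all genes. In the double mutant 4966 genes (31.5%) were higher and 3951 (25%) were lower than in lonp-1(cmh24). These percentages are the background against which the counts of each gene group in the deposited scaling of all 6 libraries are read. The values of the 2 groups did not overlap for 10189 of the tested genes (64.5%), so a lack of overlap is common here. Changes of at least 2-fold were called higher for 2012 genes (12.7%) and lower for 1217 genes (7.71%). The extremes were not symmetric, with 97 genes at least 8-fold lower and 10 at least 8-fold higher. The median log2 fold change over all tested genes was 0.03. Scaling by total reads in place of the deposited size factors shifted every gene by -0.21 on the log2 scale and left 32.4% of called genes higher in place of 55.7%, so changes smaller than that shift depend on the scaling, and only relative levels were measured. Over all genes total reads gave 3230 higher and 6728 lower, TMM factors 4417 and 4503. Without lonp-1(cmh24) replicate 1 there were 5826 higher and 4850 lower. Counts of gene groups under those settings are read against these, so an excess of lower calls with total reads is not particular to a group. In whole animals fewer cells of a type and less RNA per cell cannot be told apart.

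**Figure D1:**
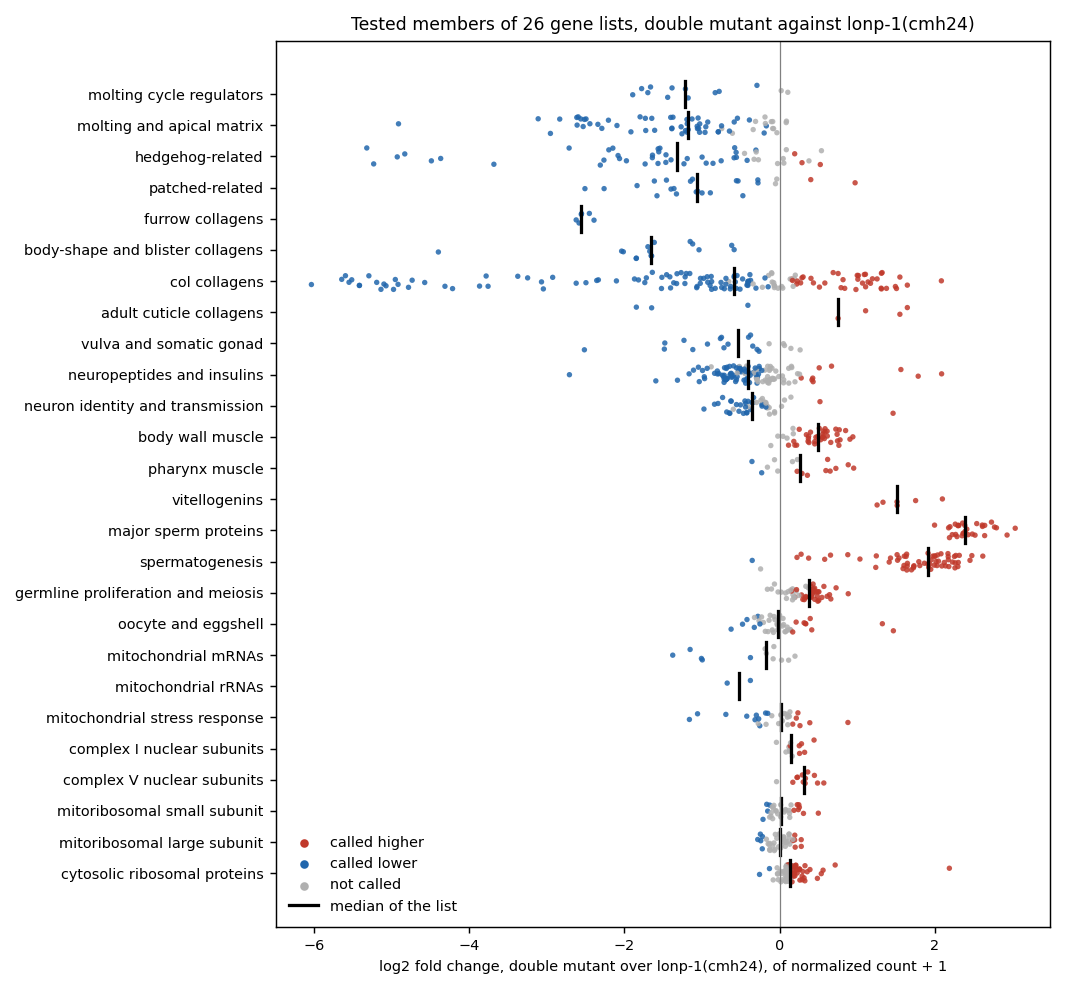
Log2 fold change of normalized count + 1, double mutant over lonp-1(cmh24), for the tested members of 26 gene lists (1 point per gene, coloured by call at an adjusted p of 0.05, black line for the list median). Members of the molting, hedgehog-related and furrow collagen lists lie mostly below 0, with furrow collagens between -2.62 and -2.39, while the 31 tested major sperm protein genes all lie above 0.

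The molting program fell broadly. Of 13 tested regulators of the molting cycle, 11 were lower in the double mutant and 2 did not pass the test, and the median change was -1.21. The nuclear receptor gene nhr-25 (WBGene00003623, chromosome X, 13008493 to 13013964), needed for molting and epidermal development, had normalized counts of 168, 175 and 192 in lonp-1(cmh24) against 41, 48.5 and 53 in the double mutant. All lonp-1(cmh24) values lay above all double mutant values, with a log2 fold change of -1.89 ± 0.13 (SE, adjusted p = 1.91e-06). For myrf-1, a membrane-tethered transcription factor that times development in late larvae, the counts were 2431, 1912 and 1897 against 590, 626 and 588, a change of -1.78 ± 0.09 (adjusted p = 4.75e-07). The period homolog lin-42, whose transcript cycles with the molts, went from 6546, 4838 and 5373 to 1796, 1715 and 1739 (-1.66 ± 0.10). The zinc-finger gene bed-3 (-1.70 ± 0.09), the Grainyhead factor grh-1 (-1.39 ± 0.10), nhr-85 (-1.44 ± 0.11) and the Blimp-1 homolog blmp-1 (-1.18 ± 0.13) were also lower. One prominent member did not follow them. The counts of nhr-23, a ROR-type receptor that drives molting cycles and also acts in spermatogenesis, were 1049, 838 and 964 against 971, 1074 and 1016, and the groups overlapped (0.11 ± 0.09, adjusted p = 0.315). Without lonp-1(cmh24) replicate 1 nhr-23 was called higher (0.18, adjusted p = 0.0089).

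Genes for the apical extracellular matrix, which shapes and then releases the cuticle, were lower with their regulators. Of 65 tested members of the molting and apical matrix list 52 fell, 40 of them by at least 2-fold, with a median of -1.18, and without replicate 1 there were 54 lower and 1 higher. The fibrillin-like gene fbn-1 had counts of 2037, 1595 and 1740 in lonp-1(cmh24) against 198, 214 and 203 in the double mutant (-3.11 ± 0.09, adjusted p = 2.01e-08). The zona pellucida domain genes noah-1 (-2.56 ± 0.10), noah-2 (-2.50 ± 0.10) and let-653 (-2.29 ± 0.08), and the lipocalin lpr-3 (-2.61 ± 0.07), were lower by similar amounts. The protease inhibitor gene mlt-11 fell from 7574, 5206 and 5850 to 1115, 1194 and 1072 (-2.44 ± 0.12). The mlt-10, mlt-8 and mlt-9 genes, named for their molting defects, changed by -1.73, -1.39 and -2.10. In none of these genes did the groups overlap, which held for 64.5% of all tested genes. The replicates of the double mutant lay close together.

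Hedgehog-related proteins of nematodes are secreted epidermal proteins, and patched-related proteins are sterol-sensing membrane proteins, and both families include genes required for molting. Of 50 tested hedgehog-related genes 37 were lower and 3 higher (median -1.31), and of 24 patched-related genes 20 were lower and 2 higher (median -1.06). The warthog gene wrt-10 went from 2343, 2409 and 2414 to 369, 387 and 336 (-2.71 ± 0.07, adjusted p = 6.77e-09), with a gap between the groups far wider than either spread. The genes wrt-1 (-2.20 ± 0.06), wrt-2 (-2.15 ± 0.13) and qua-1 (-2.26 ± 0.13), the last needed for molting, fell by comparable amounts. Among patched-related genes ptr-4 (-2.26 ± 0.10), ptr-18 (-1.36 ± 0.09) and the patched homolog ptc-3 (-1.40 ± 0.09) were lower. The exceptions rose by less than 2-fold, with a largest change of 0.97 among patched-related genes. Among hedgehog-related genes grd-3 was higher with counts of 1575, 2292 and 2218 against 2929, 2832 and 2882 (0.53 ± 0.12, adjusted p = 0.006).

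Timing genes of the heterochronic pathway, which assign stage-specific fates to epidermal cells, followed in part. Of 18 tested genes 12 were lower and 1 higher, with a median of -0.34. The zinc-finger gene hbl-1, an early-stage timer, had counts of 339, 319 and 309 against 136, 159 and 156 (-1.096 ± 0.09). The adult-fate factor lin-29 (811, 784 and 763 against 436, 487 and 447) and its cofactor mab-10 changed by -0.78 ± 0.07 and -0.89 ± 0.13. Neither lin-28 (-0.05 ± 0.06, adjusted p = 0.43) nor lin-41 (0.04 ± 0.05, adjusted p = 0.522) passed the test, and in both the groups overlapped. Seam and hypodermis genes were 6 lower and 2 higher of 10, among them the fusogens eff-1 (-1.40 ± 0.09) and aff-1 (-1.84 ± 0.13), which fuse epidermal cells.

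Collagens moved in opposite directions by class. All 6 collagens of the annular furrows of the cuticle fell, by nearly the same amount. The counts of dpy-7 (WBGene00001069, chromosome X, 7536467 to 7537792) were 3315, 3397 and 3278 in lonp-1(cmh24) against 554, 535 and 573 in the double mutant (-2.58 ± 0.05, adjusted p = 4.74e-09). For dpy-10, whose mutants are short and fat, they were 1835, 2089 and 2026 against 306, 324 and 333 (-2.62 ± 0.07). The other furrow genes dpy-2, dpy-3, dpy-8 and dpy-9 changed by -2.55, -2.56, -2.45 and -2.39. All 15 tested body-shape and blister collagens fell as well (median -1.66). Their largest decrease was that of dpy-14 (125, 280 and 220 against 9.54, 4.85 and 12.5, -4.40 ± 0.36). Among them rol-6 (-2.01 ± 0.05), sqt-1 (-1.70 ± 0.05) and the struts collagen bli-1 (-1.85 ± 0.13) had no overlap between the groups. The prolyl 4-hydroxylase subunit dpy-18, which modifies collagens, fell from 5942, 5325 and 5615 to 1823, 1858 and 1828 (-1.61 ± 0.05). Its list of cuticle crosslinking and collagen processing genes held 3 higher and 9 lower of 14. In that list phy-3 went the other way, with a change of 1.73 without lonp-1(cmh24) replicate 1.

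Adult cuticle collagens split. Of 7 tested genes 4 were higher and 3 lower. The adult marker col-19 had counts of 23540, 26620 and 27060 in lonp-1(cmh24) against 54970, 56190 and 55230 in the double mutant (1.11 ± 0.06, adjusted p = 4.40e-07). Increases also occurred in col-7 (889, 955 and 946 against 2939, 2898 and 2915, 1.65 ± 0.05), col-62 (1.55 ± 0.05) and col-119 (0.76 ± 0.06), whereas bli-1, bli-2 (-1.65 ± 0.05) and col-71 (-0.41) fell. In the fit of all 12 libraries 2 adult collagens were called higher and 2 lower. Abundant col genes without a mutant name rose in the same range, such as col-81 (1.49 ± 0.05) and col-181 (1.38 ± 0.07). In the wider family of 144 tested col genes 38 were higher, 21 of them by at least 2-fold, and 88 were lower, 55 by at least 2-fold. The summed share of reads in collagens barely moved, from 8.35% ± 0.17 (SD, n = 3) to 8.64% ± 0.023. Collagens are a large family with close copies, and reads shared between copies could have been split differently by the authors' counting.

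**Figure D2:**
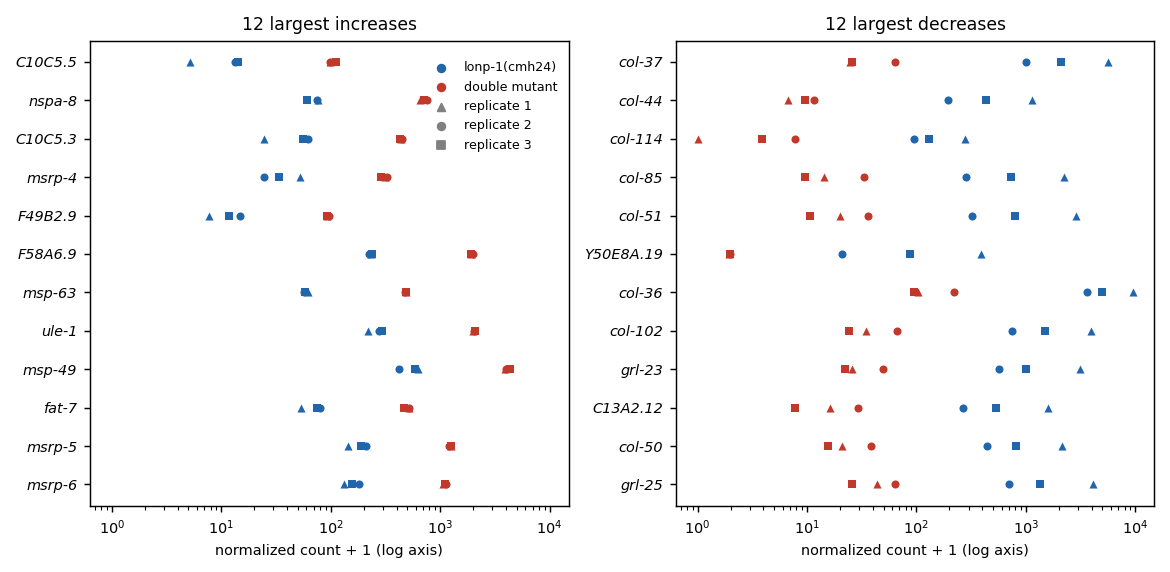
Normalized count + 1 (log axis) in each of the 6 libraries for the 12 called genes with the largest increase and the 12 with the largest decrease (mean of at least 50, no overlap), with a marker shape per replicate. For the decreased genes the highest lonp-1(cmh24) value is in most cases that of replicate 1, as for col-37 with 5604 against 1006 and 2076.

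The deepest decreases formed a set of their own. The 12 largest were 8 col genes (col-37, col-44, col-114, col-85, col-51, col-36, col-102 and col-50), the grl genes grl-23 and grl-25 of the ground-like hedgehog-related class, and Y50E8A.19 and C13A2.12. For col-37 (WBGene00000614, chromosome V, 12166706 to 12167753) the counts were 5604, 1006 and 2076 in lonp-1(cmh24) against 23.8, 63 and 25 in the double mutant (-6.04 ± 0.65, adjusted p = 0.00019). For grl-23 they were 3149, 570 and 1007 against 24.8, 48.5 and 21.2 (-5.32 ± 0.62). Replicate 1 was several-fold above replicates 2 and 3 in both genes. The 12 genes were picked among those without overlap, so the separation of the groups in them was set by that choice. Without replicate 1 the changes of col-37 and grl-23 were -5.38 (adjusted p = 0.00531) and -4.64 (adjusted p = 0.00362). Over the 12 genes they then ran from -5.38 for col-37 to -4.44 for Y50E8A.19. In Y50E8A.19 replicate 1 was 7.29-fold the mean of replicates 2 and 3. The zona pellucida gene cut-1, a cuticlin, behaved alike (2541, 478 and 910 against 28.6, 58.2 and 22.1), with -4.91 ± 0.62 and -4.26 without replicate 1.

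Across the 97 genes at least 8-fold lower, replicate 1 was the highest lonp-1(cmh24) library for 76 genes (78.4%), against 39.3% of all tested genes. Its value was a median of 2-fold the mean of replicates 2 and 3. Without that library 71 of the 97 stayed called and at least 8-fold lower. The set held 30 collagens and 6 grl genes, against 182 and 24 among the 15790 tested genes. The filter used the mean of the 6 compared libraries, so genes low in wildtype could pass it through lonp-1(cmh24) alone. In wildtype 62 of the 97 had a mean normalized count under 10, against 937 of all tested genes. The level of cut-1, for example, was 3.28 in wildtype and 1.56 in mrps-38(P210L), while its double mutant mean was 36.3. In mrps-38(P210L) 1819 of all tested genes had a mean under 10, and 57 of the 97 did. The others were not near background there, as for the alpha-tubulin tba-8, with means of 86.7 in wildtype and 681 in mrps-38(P210L). Of the 1217 genes at least 2-fold lower 1077 remained so without replicate 1, as did 1939 of the 2012 genes at least 2-fold higher. The part of replicate 1 in the size of the large decreases was otherwise not tested.

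Spermatogenesis genes rose almost without exception. Major sperm proteins form the motility cytoskeleton of nematode sperm and also signal to oocytes. All 31 tested msp genes rose, by at least 2-fold each, with a median of 2.39. The counts of msp-142 were 668, 729 and 694 in lonp-1(cmh24) against 3530, 3696 and 3564 in the double mutant (2.37 ± 0.05, adjusted p = 5.67e-09). The largest called increases in the family were those of msp-63 (61.5, 56 and 57 against 486, 481 and 487, 3.04 ± 0.08) and msp-49 (2.93 ± 0.13). The share of all reads in msp genes rose from 0.161% ± 0.007 (SD, n = 3) to 0.744% ± 0.017, a 4.61-fold difference (exact permutation test, two-sided, p = 0.1, the smallest p that 3 against 3 can give). The msp genes are near-identical copies, so their single values are uncertain while the sum is less so.

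Other sperm genes rose with them. Of 64 tested members of the spermatogenesis list 62 were higher, 56 by at least 2-fold, with a median of 1.91. The sperm phosphatase genes gsp-3 (964, 990 and 960 against 3909, 3862 and 3853) and gsp-4 rose by 2.00 ± 0.04 and 2.05 ± 0.05. The paternal-effect gene spe-11 (366, 376 and 412 against 1337, 1354 and 1356, 1.81 ± 0.07), the fertilization receptor gene spe-9 (1.25 ± 0.09) and the ferlin fer-1 (1.24 ± 0.07) rose less. The regulator spe-44, a transcription factor of early sperm development, rose by 0.66 ± 0.08. The genes that specify sperm fate upstream did not: fog-1 was lower (292, 378 and 342 against 263, 282 and 244, -0.35 ± 0.11, adjusted p = 0.0217), and fog-3 did not pass the test (-0.24 ± 0.14, adjusted p = 0.17). Argonautes of the sperm small RNA pathways rose, with alg-3 at 683, 559 and 587 against 1954, 1926 and 1781 (1.63 ± 0.08), alg-4 at 1.85 ± 0.09 and wago-10 at 1.21 ± 0.09. In alg-3, alg-4 and wago-10 the groups did not overlap, as in 64.5% of all tested genes.

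Several metabolic and housekeeping families changed in 1 paralog more than in another. These pairs were singled out after their values had been seen. Phosphoenolpyruvate carboxykinase pck-3 rose from 240, 241 and 212 to 828, 794 and 804 (1.805 ± 0.08), while pck-1 was lower (-0.29 ± 0.09) and pck-2 overlapped (0.08 ± 0.08, adjusted p = 0.402, and 0.18 with adjusted p = 7.07e-05 without lonp-1(cmh24) replicate 1). Phosphofructokinase pfk-1.2 rose by 1.47 ± 0.08 and pfk-1.1 by 0.42 ± 0.05. Cystathionine beta-synthase cbs-2 (257, 267 and 262 against 752, 687 and 708) rose by 1.45 ± 0.07, with cbs-1 not called (0.04 ± 0.08, adjusted p = 0.674). The mitochondrial fission factor paralogs fis-1 and fis-2 changed by 1.84 ± 0.15 and -0.28 ± 0.07. S-adenosylmethionine synthetase sams-5 rose by 1.19 ± 0.05 with sams-1 not called, and the proteasome subunit rpn-6.2 by 1.03 ± 0.08 with rpn-6.1 not called. Without replicate 1 both sams-1 (0.13) and rpn-6.1 (0.16) were called higher, by far less than their paralogs. Among ribosomal protein genes rpl-42 (44.7, 30.4 and 31.4 against 152, 167 and 172, 2.19 ± 0.16) and rpl-11.1 (0.72 ± 0.07) rose, and rpl-11.2 was lower (-0.26 ± 0.04). In mrps-38(P210L) against wildtype, pck-3, pfk-1.2, cbs-2, fis-1, sams-5, rpn-6.2, rpl-42 and rpl-11.1 were each called lower, with log2 fold changes of -4.36 to -0.76.

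Germline genes rose less and oocyte genes mostly did not. Of 53 tested genes of germline proliferation and meiosis 35 were higher, with a median of 0.38. With scaling by total reads 17 were higher and 2 lower, and without replicate 1 there were 35 higher and 4 lower. The translational repressor gld-1 of the meiotic germline had counts of 7217, 8036 and 7749 against 11830, 12270 and 12270 (0.66 ± 0.05), and the germ granule helicase glh-1 rose by 0.61 ± 0.04. Of 40 oocyte and eggshell genes 9 were higher and 6 lower with a median of -0.02, without lonp-1(cmh24) replicate 1, which was low for these genes, 9 were higher and 21 lower, and with total reads 2 were higher and 16 lower. The yolk receptor rme-2 had counts of 4408, 5762 and 5578 against 5323, 5567 and 5253 (0.05 ± 0.09, adjusted p = 0.701), and the eggshell gene cpg-1 did not pass the test either (-0.03 ± 0.10, adjusted p = 0.842), but without replicate 1 cpg-1 was called lower (-0.16). Among the 9 higher genes were perm-2 (6285, 9575 and 8784 against 22340, 22060 and 22690, 1.47 ± 0.13) and perm-4 (1.33 ± 0.14), which encode permeability barrier proteins of the eggshell. DNA replication genes gave 1 higher and 3 lower of 34, 4 higher and 16 lower without replicate 1, and 0 higher and 14 lower with total reads. Histone genes were 5 higher and 15 lower of 28, and the linker histone gene his-24 fell from 1117, 1349 and 1191 to 356, 352 and 356 (-1.77 ± 0.08).

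Yolk transcripts rose. All 6 vitellogenin genes, which encode the yolk lipoproteins made in the intestine, were higher, and their share of reads went from 0.949% ± 0.17 (SD, n = 3) to 2.45% ± 0.0087, a 2.58-fold difference (exact permutation test, two-sided, p = 0.1). The counts of vit-2 were 51130, 65270 and 63530 in lonp-1(cmh24) against 172200, 169900 and 169800 in the double mutant (1.52 ± 0.08, adjusted p = 6.37e-07). For vit-6 (WBGene00006930, chromosome IV, 8261157 to 8266459) the change was 1.75 ± 0.08 and for vit-1 it was 2.10 ± 0.14. In vit-3 replicate 1 was the lowest library (6030, 14580 and 13170 against 24790, 25210 and 25330), and the change of 1.26 ± 0.31 was 0.86 without it. In the fit of all 12 libraries 2 of the 6 genes were called. The vit-3, vit-4 and vit-5 genes are close copies.

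**Figure D3:**
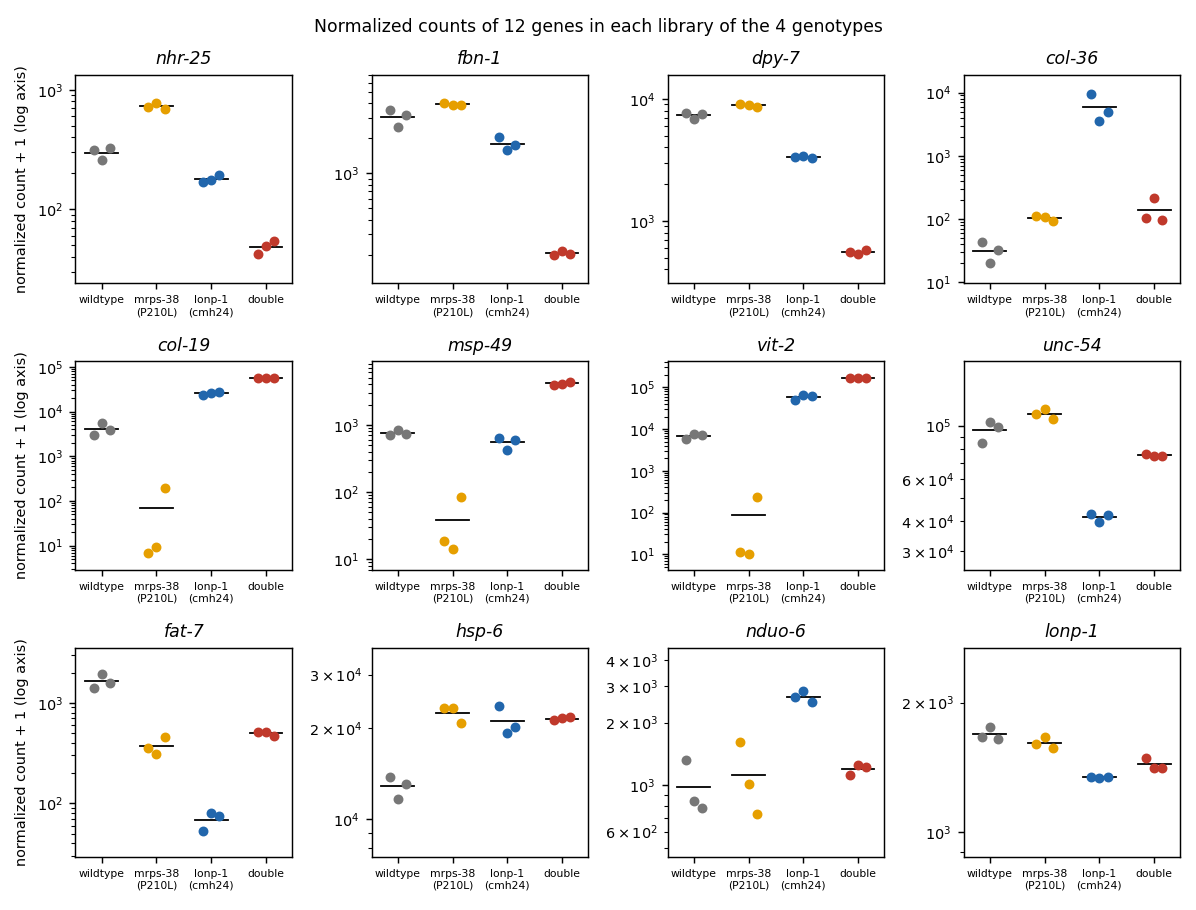
Normalized count + 1 (log axis) of 12 genes in each library of the 4 genotypes, 1 point per library with a bar at the mean. In the double mutant nhr-25, fbn-1, dpy-7 and col-36 lie below lonp-1(cmh24), col-19, msp-49, vit-2, unc-54 and fat-7 lie above it, and hsp-6 and lonp-1 differ by less than 0.11 on the log2 scale.

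Muscle genes were higher in concert. Of 42 tested genes of body wall muscle 36 rose, each by less than 2-fold, with a median of 0.50, and with total-read scaling 28 rose and 1 fell. The major myosin heavy chain unc-54 had counts of 42780, 39680 and 42420 against 75980, 74760 and 74600 (0.85 ± 0.05, adjusted p = 4.91e-07). Paramyosin unc-15 (0.74 ± 0.06), troponin T mup-2 (0.77 ± 0.04), the actin act-4 (0.73 ± 0.06) and titin ttn-1 (0.49 ± 0.05) rose, and the second myosin myo-3 rose by 0.25 ± 0.04. The share of reads in the list was 2.10% ± 0.075 (SD, n = 3) and 2.82% ± 0.0087. Pharyngeal myosins myo-2 (4233, 4574 and 4414 against 8626, 8624 and 8398, 0.96 ± 0.05) and myo-1 (0.89 ± 0.05) rose as well, in a pharynx list with 9 higher and 2 lower of 16 (6 and 3 with total reads). The fate regulators of that organ, pha-4 (-0.23) and ceh-22 (-0.36), were the 2 lower genes, and ceh-22 was not called without replicate 1 (adjusted p = 0.0832).

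Neuronal transcripts went the other way. Of 46 tested genes of neuron identity and transmission 26 were lower and 2 higher (median -0.35), and of the neuropeptide and insulin genes 69 were lower, 9 higher and 44 not called (median -0.41). The synaptic vesicle GTPase rab-3 had counts of 338, 388 and 391 in lonp-1(cmh24) against 264, 267 and 292 in the double mutant (-0.44 ± 0.09, adjusted p = 0.00238). The neuropeptide genes flp-1 (-0.62 ± 0.08) and flp-14 (-0.71 ± 0.07) fell, as did the glutamate transporter eat-4 (-0.64 ± 0.18), whereas the pan-neuronal gene unc-119 did not pass the test (-0.22 ± 0.09, adjusted p = 0.0612). The insulin ins-7 rose by 1.79 and nlp-4 by 2.09. In the vulva and somatic gonad list 15 of 20 genes were lower (median -0.53) and none higher, with 3 higher when replicate 1 was left out. The lower ones included the Notch receptor lin-12 (212, 233 and 234 against 96.3, 82.4 and 110, -1.23 ± 0.12), the vulval factor vab-23 (-1.49 ± 0.11) and cdh-3 (-1.48 ± 0.11). Intestinal genes were 9 higher and 1 lower of 16 (5 and 3 with total reads), with the esterase marker ges-1 at 0.45 ± 0.15 and the fate factor elt-2 not called (-0.15 ± 0.14, adjusted p = 0.37). The coelomocyte marker unc-122 had counts of 21.1, 14.8 and 19 against 15.3, 11.6 and 19.3 and was not called (-0.25 ± 0.26, adjusted p = 0.434).

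The markers of body wall muscle, pharynx, neurons, intestine, hypodermis, sperm, oocytes and coelomocytes were detected in all 6 libraries. Lists of sperm, yolk and muscle genes moved up while lists of molting, neuron and vulva genes moved down. The part of tissue composition or of the exact developmental stage in the single changes was not tested.

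Transcripts of the mitochondrial genome were lower for some genes and not called for others. Of its 12 protein-coding transcripts 5 were lower and 7 did not pass the test (median -0.18). With total reads, and in the FPKM table, 10 of the 12 were called lower (median -0.39). The 4 transcripts with the lowest FPKM in lonp-1(cmh24) fell most, with changes of -1.38 to -0.996, whereas the most abundant ones did not pass the test. The complex I subunit nduo-6 (MtDNA, 113 to 549) had FPKM values of 316, 345 and 305 in lonp-1(cmh24) against 117, 130 and 127 in the double mutant, and a change of -1.15 ± 0.07 in normalized counts (adjusted p = 6.67e-07). Its neighbour ndfl-4 (549 to 783) had 15.2, 16.8 and 15.6 FPKM against 4.28, 4.85 and 6.54 (-1.38 ± 0.18). The levels of nduo-2 were 42.2, 48.4 and 43 FPKM against 19.5, 18.1 and 19.5 (-1.01 ± 0.07), and those of nduo-3 were 42.9, 39.1 and 37.9 FPKM against 17.6, 15.4 and 18.8 (-0.996 ± 0.10). In all 4 genes, which encode complex I subunits, the groups were far apart. A smaller decrease was called for nduo-5 (-0.37 ± 0.07).

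The highly expressed mitochondrial mRNAs showed another pattern. The cytochrome oxidase subunit ctc-1 had 4600, 6170 and 5980 FPKM in lonp-1(cmh24) against 4360, 4460 and 4720 in the double mutant, and its change of -0.08 ± 0.10 in normalized counts did not pass the test (adjusted p = 0.49). Replicate 1 of lonp-1(cmh24) was the low library, and without it ctc-1 (-0.21, adjusted p = 6.27e-06), atp-6 (-0.35, adjusted p = 1.34e-06), nduo-4 (-0.26) and ctb-1 (-0.15) were called lower, which made 9 of 12. The complex I subunit nduo-1 did not pass the test with or without it (0.03 ± 0.05, adjusted p = 0.685, and 0.04), but was called lower with total reads (-0.19, adjusted p = 0.00653). Both rRNA genes of the organelle were lower, MTCE.7 with a change of -0.38 ± 0.11 and MTCE.33 with -0.67 ± 0.12. Reads from all 18 mitochondrial genes in the table made up 2.73% ± 0.38 (SD, n = 3) of reads in lonp-1(cmh24) against 2.24% ± 0.094 in the double mutant (exact permutation test, two-sided, p = 0.2). In wildtype that share was 0.67% ± 0.056 and in mrps-38(P210L) 0.575% ± 0.03, so both compared groups stood above the genotypes without the lonp-1 mutation.

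**Figure D4:**
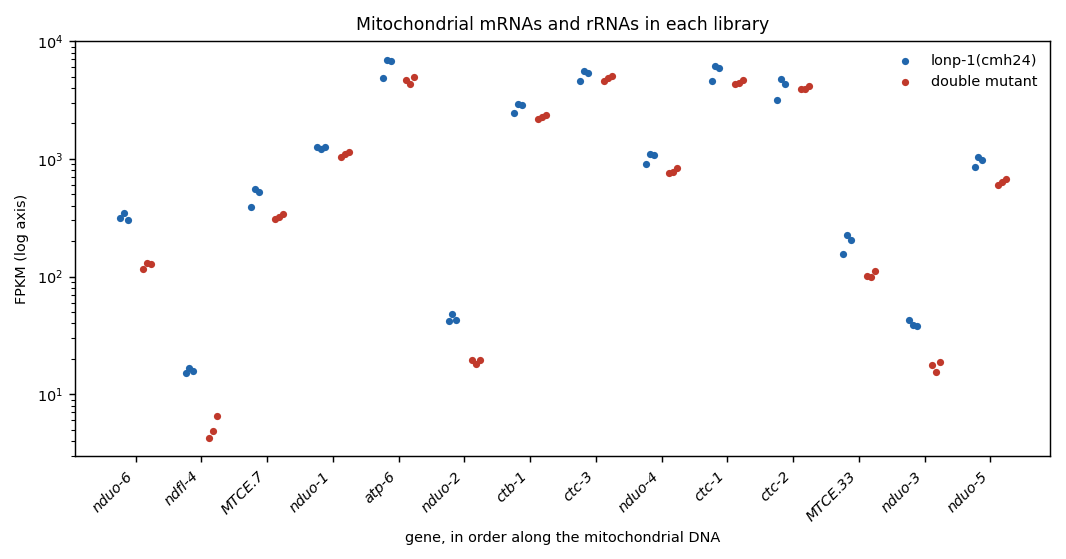
FPKM (log axis) of the mitochondrial mRNAs and rRNAs, in their order along the mitochondrial DNA, in each lonp-1(cmh24) and double mutant library. The groups lie furthest apart for nduo-6, ndfl-4, nduo-2 and nduo-3, at 17.3 against 40.0 FPKM for nduo-3. They also separate, by less, for nduo-1, nduo-4, nduo-5, ctb-1, MTCE.7 and MTCE.33, and overlap for ctc-1, ctc-2, ctc-3 and atp-6.

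Nuclear genes of the mitochondrial stress response did not move as a block. Of 29 tested members 6 were higher and 10 lower, with a median of 0.02, and with replicate 1 left out 11 were higher and 11 lower. With total reads 2 were higher and 17 lower (median -0.20), so the balance of this list depends on the scaling. The chaperone hsp-6 had counts of 23580, 19270 and 20130 in lonp-1(cmh24) against 21260, 21480 and 21650 in the double mutant, and the groups overlapped (0.04 ± 0.07, adjusted p = 0.68). Without lonp-1(cmh24) replicate 1, its highest library, hsp-6 was called higher (0.12, adjusted p = 0.00151). Its partner hsp-60 was slightly lower (16230, 14780 and 15250 against 14050, 14010 and 13550, -0.15 ± 0.05, adjusted p = 0.0264), and atfs-1 slightly higher (1847, 1860 and 1864 against 2179, 2154 and 2234, 0.24 ± 0.04, adjusted p = 0.0015). The total-read scaling of all 6 libraries put hsp-6 at -0.18. The transcript of lonp-1 itself had counts of 1341, 1333 and 1344 against 1488, 1412 and 1412 and did not pass the test (0.10 ± 0.05, adjusted p = 0.105), but was called higher without replicate 1 (0.10, adjusted p = 0.0391). Since both groups carry cmh24, this gene does not test the labels, and mrps-38 is not analysed here. The histone demethylases of the response differed, with jmjd-3.1 lower (722, 660 and 662 against 327, 330 and 324, -1.06 ± 0.07) and jmjd-1.2 higher (0.39). The import channel subunit timm-23 was lower (-0.27 ± 0.05) and the glutathione transferase gst-4 higher (578, 599 and 559 against 1067, 1078 and 1056, 0.88 ± 0.06).

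Respiratory chain genes of the nucleus rose slightly in the deposited scaling. Called higher were 6 of 13 nuclear complex I genes, 4 of 5 of complex II, 6 of 7 of complex III, all 7 of complex IV and, for complex V, 11 of 12, with medians of 0.14, 0.20, 0.42, 0.28 and 0.32. Scaling by total reads moved these medians to -0.07, -0.01, 0.21, 0.07 and 0.10, and the counts called higher to 1, 1, 4, 1 and 4, with 2 lower in complex I and 1 each in complexes II and V. The medians thus turned for complexes I and II and stayed above 0 for complexes III to V, with few genes called in complexes IV and V. Without replicate 1 the number called higher in complex I was 11. Genes of the tricarboxylic acid cycle were 17 higher and 1 lower of 20 (7 higher and 2 lower with total reads). Mitochondrial ribosomal proteins, the family of the mutated subunit, showed no common direction, with 7 higher and 4 lower of 30 in the small subunit and 6 higher and 5 lower of 42 in the large subunit (median 0.01 in each). With total reads the small subunit gave 1 higher and 16 lower and the median turned to -0.20, and the large subunit's median turned to -0.21 with 24 lower. Without replicate 1 the small subunit gave 9 higher and 7 lower and the large subunit 9 higher and 11 lower. TMM factors gave 3 higher and 9 lower in the small subunit, 2 higher and 9 lower in the large subunit, and 1 higher in complex II. Mitochondrial translation factors and tRNA synthetases were 2 higher and 4 lower of 18, with 7 lower when replicate 1 was left out and 12 lower and none higher with total reads (median -0.28). Of 81 cytosolic ribosomal protein genes 39 were higher and 2 lower (median 0.14), and with total reads 6 were higher and 23 lower (median -0.08). Their summed share of reads was lower in the double mutant, at 13.4% ± 0.17 (SD, n = 3) against 14.2% ± 0.41 in lonp-1(cmh24) (exact permutation test, two-sided, p = 0.1).

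Several detoxification and stress genes fell. All 5 flavin monooxygenase genes fell, with a median of -1.16. The gene fmo-2 (WBGene00001477, chromosome IV, 10682524 to 10684367), which is induced by several stresses and by HIF-1, had counts of 454, 377 and 391 in lonp-1(cmh24) against 174, 172 and 198 in the double mutant (-1.16 ± 0.10, adjusted p = 9.69e-06). Its wildtype mean was 26.5, so the double mutant lay between wildtype and lonp-1(cmh24). The same order of means held for hrg-9, a heme trafficking gene (398, 407 and 417 against 247, 250 and 258, with 102 in wildtype, -0.69 ± 0.07), and for sod-3, a mitochondrial superoxide dismutase (196, 192 and 183 against 107, 117 and 96.3, with 64.4 in wildtype, -0.83 ± 0.10). It held too for dct-1, a mitophagy receptor (459, 381 and 388 against 232, 242 and 230, with 193 in wildtype, -0.80 ± 0.09), for the divergent tubulin tbb-6 (-0.90 ± 0.13) and for the ferritin ftn-1 (-0.57 ± 0.12). These 6 genes were put side by side after their values had been seen.

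Other stress families were mixed. Of 12 genes of the HIF-1 and sulfide response 4 were lower, including rhy-1 (-0.51 ± 0.12) and cysl-2 (-0.44 ± 0.11), and without replicate 1 there were 5 lower and 2 higher. Small heat shock genes hsp-16.2 (363, 248 and 250 against 123, 146 and 125, -1.105 ± 0.15) and hsp-16.41 (-1.14 ± 0.11) fell, while hsp-12.3 (0.94) and hsp-43 (0.76) rose, for 5 higher and 4 lower of 15 (3 and 8 with total reads). Among 17 endoplasmic reticulum stress genes 6 were lower and 2 higher (median -0.06), and the chaperone hsp-4 was among the higher ones (0.28 ± 0.07). Without replicate 1 the endoplasmic reticulum list gave 7 higher and 6 lower (median 0.02), and with total reads none was higher and 10 were lower. Cytochrome P450 genes were 8 higher and 26 lower of 61, glutathione transferases 16 higher and 6 lower of 43, and glucuronosyl transferases 20 higher and 15 lower of 59 (17 and 23 with total reads). The intracellular pathogen response list had 2 higher and 13 lower of 30 tested, and 4 higher and 12 lower without replicate 1. In the iron and heme list hrg-2 (-2.16 ± 0.18) and hrg-1 (-0.83 ± 0.09) fell, and the metal transporter smf-3 (1.45 ± 0.15) and ferritin ftn-2 (0.69 ± 0.05) rose.

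Lipid genes included one of the largest increases. The stearoyl-CoA desaturase fat-7 (WBGene00001399, chromosome V, 7151353 to 7153146) had counts of 52.3, 79.0 and 73.5 in lonp-1(cmh24) against 518, 514 and 468 in the double mutant (2.88 ± 0.15, adjusted p = 3.86e-07). Its wildtype mean was 1635, so the double mutant again lay between lonp-1(cmh24) and wildtype. The paralog fat-6 rose from 8417, 5785 and 6344 to 12860, 13380 and 12920 (0.95 ± 0.12) and fat-5 by 0.61 ± 0.09, while the delta-12 desaturase fat-2 did not pass the test (-0.15 ± 0.07, adjusted p = 0.125). Of 21 genes of fatty acid synthesis, desaturation and elongation 13 were higher and 3 lower (9 and 5 with total reads). Beta-oxidation genes were 15 higher and 6 lower of 42 (median 0.04). Without replicate 1 they were 25 higher and 6 lower, and with total reads the balance turned to 9 higher and 15 lower (median -0.17). The gene acs-2, an acyl-CoA synthetase that responds to fasting, overlapped between the groups (0.02 ± 0.14, adjusted p = 0.919) and was called higher without replicate 1 (0.20, adjusted p = 0.000336). The propionate shunt gene acdh-1 did not pass the test (0.05 ± 0.05, adjusted p = 0.415).

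Among gut-expressed and immune families, lysosomal proteases were 15 higher and 1 lower of 22 (median 0.47, and 10 and 4 with total reads), with asp-1 at 102100, 62820 and 70100 against 110600, 112900 and 111700 (0.55 ± 0.15) and asp-14 at 2.57. C-type lectins, a large family of secreted lectin-domain proteins, were 67 higher and 21 lower of 124 tested (median 0.48), led by clec-175 (2.47), clec-97 (2.34) and clec-153 (2.20), with clec-180 lower (-2.72). The lysozyme genes lys-1 (1.17) and ilys-5 (2.30) rose in a list of antimicrobial genes with 24 higher and 19 lower of 65 (20 and 27 with total reads). Transthyretin-related genes were 35 higher and 8 lower of 55 (median 0.46). Nuclear hormone receptors were 20 higher and 72 lower of 197 (median -0.23), and F-box A genes 32 higher and 51 lower of 156. With total reads the receptors gave 11 higher and 127 lower, and the F-box A genes 18 and 65.

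The change measured on adding mrps-38(P210L) differed between the lonp-1(cmh24) and the wildtype background for most genes. The part of the exact stage of each genotype within L4 in these differences was not tested. The difference between the effect in lonp-1(cmh24) and the effect in wildtype, fitted with limma over all 12 libraries, was called for 10377 of 15717 genes (66.0%), with 5413 (34.4%) more positive and 4964 (31.6%) more negative in the lonp-1(cmh24) background. Without replicate 3 of mrps-38(P210L), which stood apart from its group, it was called for 10256 genes. The wildtype libraries differed more among themselves, with a chi-square per gene of 28.9, 6.98 and 11.9 between pairs, against 2.52 to 7.98 in mrps-38(P210L). Leaving out wildtype replicate 1, 2 or 3 gave 10220, 10228 and 9899 called genes. In the wildtype background the mutation raised 31.5% of genes and lowered 34.7%. Across 15484 genes tested in both fits, the log2 fold changes in the 2 backgrounds, which share no library, had a Pearson r of -0.582. This describes genes, which are not independent replicates. Of 1944 genes at least 2-fold higher in the double mutant than in lonp-1(cmh24), 1738 (89.4%) were called lower in mrps-38(P210L) than in wildtype and 66 (3.4%) higher. Of 1148 genes at least 2-fold lower in the double mutant, 420 (36.6%) were called higher in mrps-38(P210L), 253 (22%) lower and 475 not called.

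**Figure D5:**
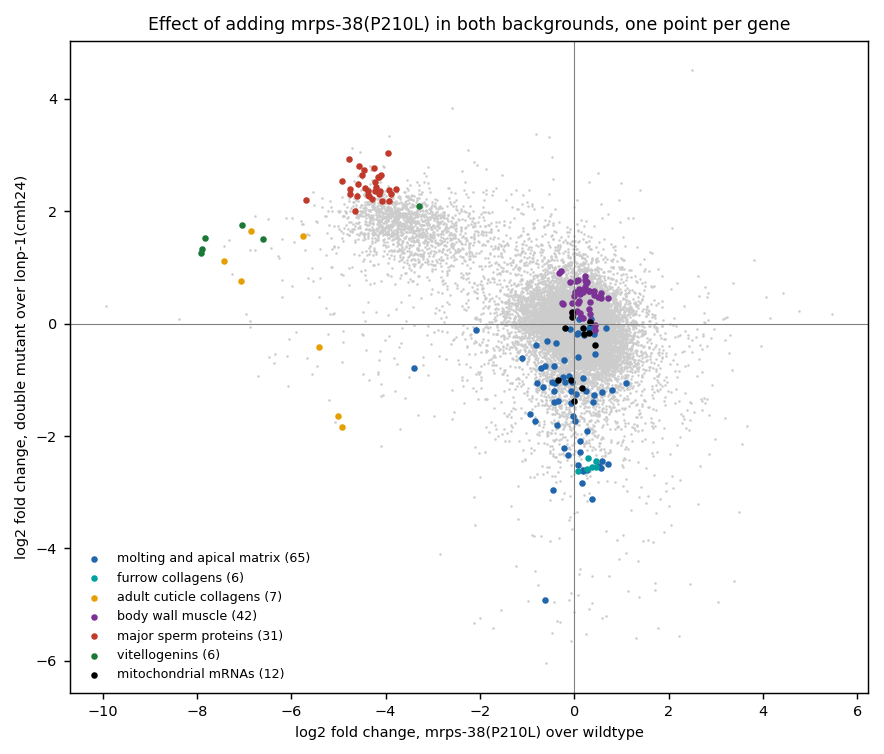
Log2 fold change of the double mutant over lonp-1(cmh24) (vertical) against that of mrps-38(P210L) over wildtype (horizontal), 1 point per gene, with selected lists coloured. Sperm and yolk genes lie in the upper left, with msp medians of 2.39 and -4.28, and furrow collagens lie in the lower right, with medians of -2.55 and 0.34.

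The named groups differed in how the 2 backgrounds compared. The 31 msp genes had a median of -4.28 in mrps-38(P210L) against wildtype, where all 31 were lower, and the 6 vitellogenins had -7.43. Molting regulators were 12 higher of 13 in the wildtype background (median 0.60), and nhr-25 went from 297 in wildtype to 724 in mrps-38(P210L), a change of 1.29 against -1.89 in the lonp-1(cmh24) background. Furrow collagens were 5 higher and 0 lower of 6 in the wildtype background (median 0.34), and heterochronic genes 14 higher and 2 lower of 18 (median 0.73). Patched-related genes were 10 higher and 1 lower of 25 there (median 0.10), and seam and hypodermis genes 8 higher and 1 lower of 12 (median 0.545). Further lists that fell in the double mutant showed no common rise in the wildtype background. There the molting and apical matrix genes were 22 higher and 18 lower of 66 (median 0.03), hedgehog-related genes 7 higher and 18 lower of 51 (median -0.15), and body-shape collagens 4 higher and 5 lower (median -0.004). The difference between backgrounds was called more negative in the lonp-1(cmh24) background for 49, 31 and 11 genes of these lists and more positive for 2, 7 and 4. Neuron genes were 32 higher and 1 lower of 47 (median 0.48), and neuropeptide and insulin genes 85 higher and 7 lower (median 0.67), opposite to their direction in the double mutant. Of 42 muscle genes 23 were called higher and 4 lower in mrps-38(P210L) (median 0.18), and unc-54 changed by 0.23 there and by 0.85 here. The summed share of reads in muscle genes did not rise there, at 3.5% ± 0.24 (SD, n = 3) in wildtype and 3.46% ± 0.034 in mrps-38(P210L). Adult collagens were all 7 lower in mrps-38(P210L). Among stress genes hsp-6 rose by 0.81 and atfs-1 by 1.05 in the wildtype background, and the differences between the backgrounds of -0.77 and -0.81 passed the test. The desaturase fat-7 changed by -2.13 and 2.88. Replicate 3 of mrps-38(P210L) held more sperm and yolk reads than replicates 1 and 2, 0.0167% against 0.00245% and 0.00242% for msp genes, and still lay below the wildtype libraries.

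The genes that were higher were not spread evenly over the genome. On chromosome IV 19.7% of tested genes were at least 2-fold higher in the double mutant, against 4.91% on chromosome X. Chromosome X, known to hold few sperm genes, had 37.3% of its tested genes called lower, against 17.7% on chromosome I. Of 595 tested pseudogenes 264 (44.4%) were called higher and 163 (27.4%) at least 2-fold higher, whereas 31% and 12.2% of protein-coding genes were. Unlike the named lists, these classes were not chosen by function, and reads of pseudogenes may be shared with their parent genes.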

How the data were processed

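Total RNA of whole L4 worms was sequenced in 12 libraries, and the 3 double mutant and 3 lonp-1(cmh24) libraries were compared. The submitters' processing notes name STAR, featureCounts, DESeq2 and the WBcel235 build, without versions. The deposited normalized counts are gene counts that the authors divided by a size factor per library, in effect a signal per gene that is comparable between libraries under DESeq2's assumption that most genes do not change. The deposited FPKM values are scaled to transcript length and to the reads of the library. The steps between low values of each library returned whole reads per gene from the deposited table for 100% of values within 0.01 read. Libraries held 22614493 to 22890539 of these reads, with deposited size factors of 0.8479 to 1.2153.

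Genes whose normalized count averaged at least 10 over the 6 libraries were tested in limma 3.58.1 (R 4.3.3) on log2(normalized count + 1). The variance prior followed the mean level and was made robust, tests were two-sided, and p-values were adjusted by Benjamini-Hochberg over all tested genes at 0.05. Only the compared libraries entered this fit. The difference between backgrounds was fitted over all 12 libraries. A fold change is on the log2(normalized count + 1) scale and understates low genes. In simulated counts for this comparison, 50 genes were changed at each of 1.5-, 2-, 4- and 8-fold, and the fit called 70%, 88%, 94% and 100% of them, with 18 calls among the 15590 genes left as they were. Far fewer genes changed in the simulation than were called in the data. It also gave both groups the same spread per gene, so its rates need not hold for the data. The alternatives were other pseudocounts, filters and scalings, the FPKM table with a pseudocount of 0.1, count tests of the whole reads in edgeR 4.0.16 and DESeq2 1.42.0, a fit with the replicate number as a block, and leaving out each library.

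Named are the 12 genes with the largest called change in each direction (mean of at least 50, no overlap), fixed markers, the mitochondrial genes, and from each of 71 gene lists up to 4 called members by change and 2 by mean. For the difference between backgrounds they are the 6 largest in each direction. Other list members were named for their known role, with values already seen. The comparison and the lists were chosen with earlier results of these data known. Of 826 list entries 22 had no match. A planned search for promoter motifs was not run, since no promoter sequences were used here.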

Additional observations from a re-analysis of the deposited data

Results flagged for a closer look

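The count of genes whose response to mrps-38(P210L) differed between the lonp-1(cmh24) and the wildtype background, 10377 of 15717, was singled out because the difference itself passed the test. Among named genes with a mean of at least 50 the largest positive differences, on the log2 scale, were those of R04F11.3 (10.24), vit-2 (9.34), vit-5 (9.22), vit-3 (9.17), col-81 (8.82) and col-181 (8.80). R04F11.3 is listed at 0 in all 3 mrps-38(P210L) libraries, at a mean of 974 in wildtype and at 1580, 1613 and 1605 in the double mutant, so its fitted value is no bound, and the double mutant, which carries the same mrps-38 allele, did not lack its reads. The largest negative differences were those of F58E6.4 (-8.88), tba-8 (-8.01), col-158 (-7.96), col-85 (-7.77), col-36 (-7.20) and nas-3 (-6.85). F58E6.4 was under the filter of the 6-library fit. The alpha-tubulin tba-8 had counts of 91.9, 86.4 and 81.8 in lonp-1(cmh24) and 2.86, 0.97 and 1.93 in the double mutant, with means of 86.7 in wildtype and 681 in mrps-38(P210L), and the astacin nas-3 had means of 23.2 and 267 in those 2 genotypes.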

How the results depend on the processing

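The counts of called genes ranged from 7580 to 10676 when each of the 6 libraries was left out in turn, with 4235 to 5826 higher and 3277 to 4850 lower, and the count for the difference between backgrounds from 9812 to 10455 over 12 such fits (10256 without mrps-38(P210L) replicate 3). Genes at least 2-fold higher numbered 1968 or more and those at least 2-fold lower 1177 or more in these fits. DESeq2 called 7823 genes and edgeR 8920. Total-read scaling gave 3230 higher and 6728 lower, and the FPKM values gave 3216 higher and 6470 lower. Requiring a mean of at least 50 left 758 genes at least 2-fold lower, a setting that tests fewer genes. The replicate numbers did not pair the samples (correlations of deviations -0.02, -0.06 and -0.02 for same-numbered libraries), and the replicate block gave 8565 called genes, 4768 higher and 3797 lower.

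Of 383 named genes tested 285 kept their direction and call under every alternative run, and 98 changed under at least 1. Signs turned under total-read scaling and the FPKM table alone, which shift all genes by the same -0.21: aco-2 (-0.002), crt-1 (-0.04), enol-1 (-0.079), hach-1 (-0.04 and -0.039), mev-1 (-0.015), mppa-1 (-0.046), nduo-1 (-0.188), pqn-59 (-0.088), rps-0 (-0.102), sdhb-1 (-0.05), tbb-2 (-0.085), ttr-15 (-0.017) and vha-20 (-0.012), and under total reads hsp-6 (-0.177). Depth was even across libraries, so low genes are limited by their own counts, and with 3 replicates a group the smallest exact p for a single share is 0.1.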

Other observations

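Several gene families that share a name class, looked at after their values had been seen, moved with the sperm genes. Of 24 tested nep genes, which encode neprilysin-like metalloproteases, 16 were higher in the double mutant, 12 of them by at least 2-fold, and 7 were lower, with a median of 1.21 against -3.29 in mrps-38(P210L) against wildtype. Of 10 irld genes, named for insulin/EGF-receptor-like ligand-binding domains, 9 were higher, with medians of 1.75 and -3.69. Of 12 snf genes, which encode sodium-coupled neurotransmitter transporter family members, 7 were higher and 1 lower, with medians of 1.22 and -2.72. Lower classes were arrd, with arrestin domains (3 higher and 12 lower of 22, median -0.44), F-box C genes (5 higher and 12 lower of 24) and hlh transcription factors (6 lower of 11). No test was made of these classes, since they were picked by their values.

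The 12 largest increases in the double mutant included C10C5.5 and its neighbour C10C5.3 on chromosome IV, whose normalized counts were 4.21, 12.3 and 13.2 against a mean of 102.3 ± 8.19 (SD, n = 3), and 23.6, 61.7 and 55.3 against 442, 452 and 428. Neither was called in mrps-38(P210L) against wildtype (-0.82 and -0.54). The uterine lumen gene ule-1 (220, 277 and 294 against 2000, 2032 and 2100) was not called there either (-0.48), whereas F58A6.9 (3.06), nspa-8 (3.33), msrp-4 (3.13) and msrp-5 (2.81) were lower there, by log2 fold changes of -4.54, -3.93, -4.71 and -4.33.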
